A study of Homo sapiens with 2 samples.

Results

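The oligoadenylate synthetase (OAS) genes are the 4 human genes OAS1, OAS2, OAS3 and OASL, described here by the binding of the transcription factor IRF1 at and around them. The members were fixed by name: every summit whose nearest gene, in the authors' annotation, is one of the 4, at any distance, was taken, together with every summit within 50 kb of the OAS1, OAS3 and OAS2 cluster or of OASL. This gave 3 of the 1986 summits in the list, and both ways of taking them found the same 3. OAS1, OAS3 and OASL each had 1 summit and OAS2 had none. A summit is the position of 1 base at which the authors placed the maximum of a bound region.

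IRF1 binding was measured by chromatin immunoprecipitation and sequencing (ChIP-seq) in NB4, an established human cell line from acute promyelocytic leukemia that carries the PML-RARA fusion. The study had 2 libraries, 1 from cells given the solvent DMSO (NB4_Control_IRF1) and 1 from cells given all-trans retinoic acid (ATRA, NB4_ATRA_4h_IRF1), each for 4 hours. Both come from this single line, and neither group has a replicate, so no value below carries an error or a test. The summits are those of the ATRA library. The control library was not analysed here, so no change with ATRA is reported, and the read depth behind each summit is unknown. Whether the control library or input DNA was the background of the peak calling is not given in the sources used here.

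OAS proteins are sensors of double-stranded RNA, a mark of virus infection in the cytosol. Once bound to it, OAS1, OAS2 and OAS3 join ATP into short 2′-5′-linked oligoadenylates (2-5A), which switch on a nuclease that cuts viral and cellular RNA. OAS1 holds a single synthetase unit, while OAS2 and OAS3 hold repeated units and OAS3 is the longest of the family. OASL has lost the synthetase activity, carries ubiquitin-like domains and is known for enhancing signalling by the RNA sensor RIG-I. All are classic interferon-stimulated genes. Interferons act on such genes through the interferon-stimulated response element (ISRE), a promoter sequence of repeated GAAA letters that STAT and IRF factors, IRF1 among them, can bind.

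The RefSeq promoter table of GRCh38.p14 (250 bases before to 50 bases after each annotated gene start) matched 2 of the 4 members, OAS1 and OAS3. Their upstream sequences are shown because the summits of both genes lie in or next to them. They read 5′ to 3′ on the + strand of chromosome 12, the coding strand of both genes. Capitals mark the IRF-type matches described below. The OAS1 stretch ends just before its RefSeq start, but the OAS3 stretch ends just before the gene start of the authors' annotation. The second OAS3 match lies between that start and the RefSeq start, still upstream of the latter, and is shown apart.
OAS1, chr12:112906712-112906961: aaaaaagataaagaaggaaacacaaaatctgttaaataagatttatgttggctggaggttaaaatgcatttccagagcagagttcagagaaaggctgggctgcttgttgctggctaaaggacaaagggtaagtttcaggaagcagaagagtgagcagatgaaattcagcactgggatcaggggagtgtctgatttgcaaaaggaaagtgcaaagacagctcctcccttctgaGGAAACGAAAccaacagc
OAS3, chr12:112938224-112938432: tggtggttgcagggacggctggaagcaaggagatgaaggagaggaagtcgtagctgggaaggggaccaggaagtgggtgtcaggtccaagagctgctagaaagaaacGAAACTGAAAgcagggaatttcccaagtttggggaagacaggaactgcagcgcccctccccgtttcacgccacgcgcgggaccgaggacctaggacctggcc
OAS3, second match, chr12:112938455-112938478: cgggcggGAAAACGAAAccagaaa

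OAS3 had the highest score of the family. Its summit was at chromosome 12 position 112938345 of hg38, in the class promoter-TSS, 88 bp upstream of the transcription start site (TSS) that the authors' annotation used. The authors' peak score there was 97.8, which ranked 169th in the list and exceeded 91.5% of all summits. This score is the authors' own value for a summit. Its scale is not stated, so it can rank summits within the list but has no physical unit. The median score of the list was 25.2, with quartiles of 17.7 and 44.0, and OAS3 lay above the upper quartile.

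OAS1 and OASL had scores below the list's median. The OAS1 summit, at position 112906971, had a score of 23.2, ranked 1071st and exceeded 46.1% of all summits. It lay 37 bp downstream of the TSS in the authors' annotation. The OASL summit, at position 121039233, had a score of 19.9, exceeded 33.1% of all summits and lay 9 bp downstream of its TSS. Both were also classed as promoter-TSS. Between the scores of OAS1 and OASL fell 256 other summits of the list. With 1 library, no spread was available to set these differences in rank against.

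Set only against the 539 summits within 1 kb of a TSS, OAS3 exceeded 86.5%, OAS1 42.5% and OASL 32.3%. In that ranking the neighbours of OAS3 were PRKD2 (98.2) and GNA13 (97.4). OAS1 stood between SLC37A2 (23.3) and LINC01054 (23.2). OASL stood between HLA-C (19.98) and ZBTB16 (19.8), and a summit of the pseudogene WASH3P had the same score as OASL. These neighbours were named for their score alone, and their promoters were not compared with those of the OAS genes.

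**Figure D1:**
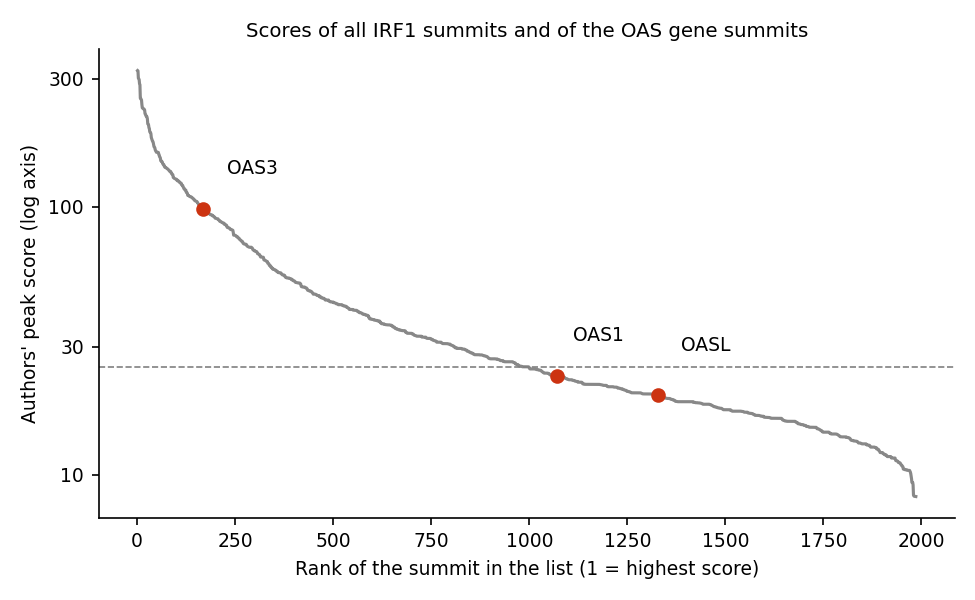
Authors' peak score (log axis) of all 1986 summits of the ATRA library against their rank, with the 3 OAS summits as red points and the list's median score as a dashed line. OAS3 (97.8) lies on the steep upper part, and OAS1 (23.2) and OASL (19.9) lie on the flat part just under the median.

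All 3 summits were within 100 bp of a TSS in the authors' annotation. Of 19974 protein-coding genes on the autosomes and chromosome X, 3.36% had a summit assigned to them within 10 kb of the TSS, and 0.931% had one within 100 bp. The OAS genes had 3 of 4 under both limits. These 4 genes were chosen with earlier results of this list known, so the count describes them and is no test. Against the gene starts of RefSeq GRCh38.p14, the OAS1 summit lay 9 bp and the OASL summit 13 bp inside the gene, and the OAS3 summit 129 bp upstream. The 2 annotations place the start of OAS3 41 bp apart, that of OAS1 28 bp apart and that of OASL 4 bp apart, which accounts for the different distances.

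OAS2, the member with no summit, sits at the end of the cluster. The 3 clustered genes span 104.8 kb of chromosome 12 in the order OAS1 (112906962 to 112933219), OAS3 (112938474 to 112973251) and OAS2 (112978519 to 113011723). The nearest summit to OAS2 was that of OAS3, 40.2 kb before its span, and on the other side the next one was 434 kb away, with SDSL as the nearest gene. No summit lay in the 5268 bp between OAS3 and OAS2. Because only called summits were given, the binding at OAS2 has no value, and a missing summit does not show missing binding.

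Within the cluster the OAS1 and OAS3 summits were 31.4 kb apart. The OAS3 summit lay in the gap between the genes, 5126 bp past the end of OAS1, and no summit was found inside the bodies of OAS3 or OAS2. Before the OAS1 summit the nearest one on the chromosome was 1500 kb upstream of the gene, with SH2B3 as the nearest gene. OASL (121017761 to 121039246) lies 8.01 Mb from the cluster, on the opposite strand as judged from the position of its TSS. Its own summit was likewise alone. The next ones were 258 kb from one end of the OASL span, at CAMKK2 (8.30), and 1189 kb from the other end, at CIT (17.2). The whole of chromosome 12 held only 94 summits, and these gaps were not compared with those at other loci.

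Of the other genes within 50 kb of these loci, 6 are described, and they had no summit inside them, and none was assigned to them. Near the cluster they were RPH3A and DTX1 and the pseudogenes IMMP1LP2 and RPS15AP32. Near OASL they were LOC105378258 and OASL2P, a pseudogene of the OASL family. Widening the window to 100 kb added no summit.

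**Figure D2:**
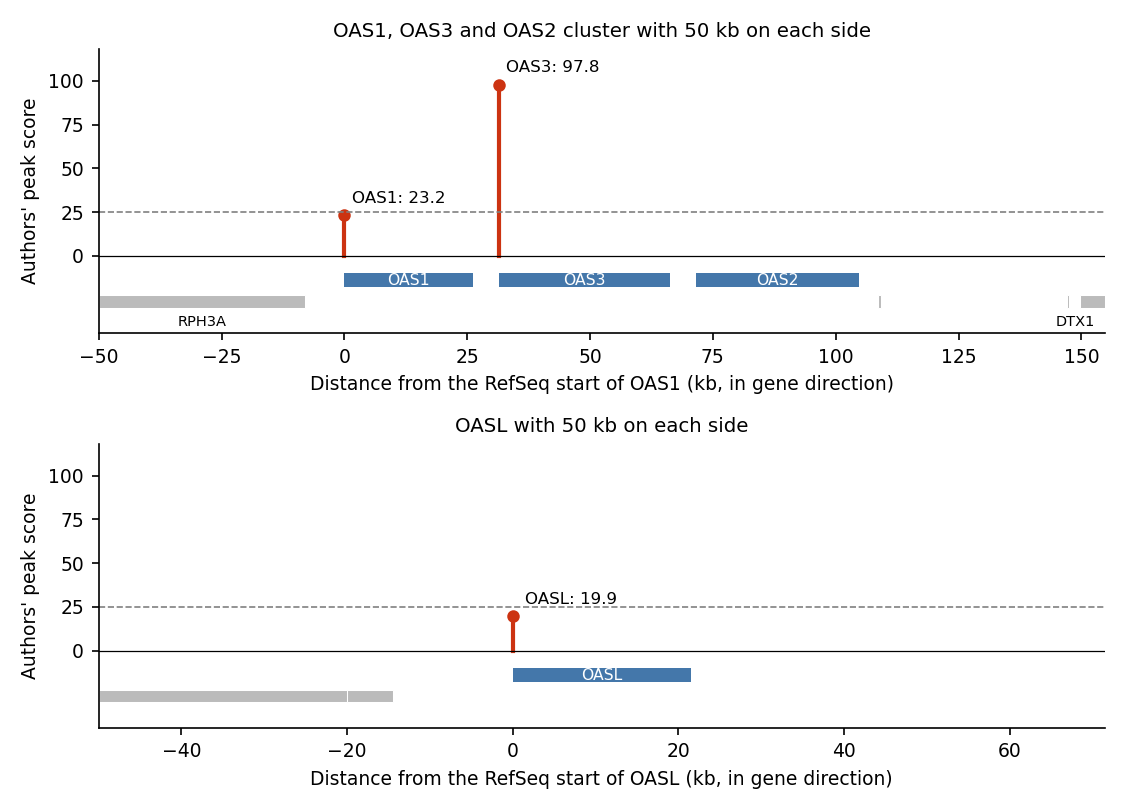
Authors' peak score of every summit (red stems) against the distance in kb from the RefSeq start of OAS1 (top) and of OASL (bottom), with OAS gene spans in blue, the 6 other genes described in grey and the list's median score as a dashed line. Each panel covers 50 kb on both sides. Stems stand at the starts of OAS1 and OASL and just before OAS3, and none stands at OAS2 or at one of the grey genes.

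The promoter sequences were searched on both strands for motifs of interferon and retinoid responses. The ISRE core was taken as GAAA and GAAA with any 2 bases between them, and a longer form adds a C after the second GAAA. A composite site of ETS and IRF factors was taken as GGAA and GAAA with any 2 bases between them. Every longer ISRE match is also a core match, and a composite match can overlap a core match by a shift of the letters. A match describes letters and does not show that a factor binds there.

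OAS3 held 2 ISRE cores. The first (112938331 to 112938340) ended 5 bp before the summit, and the second (112938462 to 112938471), which also has the longer form, began 117 bp after it. Relative to the RefSeq start the 2 matches began at -143 and -12 bases. The first is the end of a run of 4 GAAA copies on the same strand that starts 23 bp before the summit, visible in the sequence above as gaaagaaacGAAACTGAAA. Of all 35116 promoter windows in the table, 3.57% held the ISRE core, 0.259% held it at least 2 times and 0.795% held the longer form.

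OAS1 had no ISRE core in the searched form, which fixes 2 bases between the GAAA copies. Its only IRF-type match was the composite, which 2.82% of all windows held. It spans 112906944 to 112906953, from -18 to -9 bases relative to the RefSeq start, and ends 18 bp before the summit. The same letters also hold 2 copies of GAAA with 1 base between them, a spacing that the ISRE search does not take. Whether they act as an ISRE or as a composite site was not tested. With 1 mismatch allowed among the fixed letters of the ISRE core, OAS1 matched too, but so did 33% of all windows. The TSS in the authors' annotation lies before this site, so on that annotation the match is downstream of the start. The match with 2 bases on each side, gaGGAAACGAAAcc, occurred in the promoter of 1 other gene in the table, TRIM25, a ubiquitin ligase that acts on RIG-I. TRIM25 also had a summit within 1 kb of its TSS, with a score of 27.0. Neither of the 2 OAS3 matches, taken with 2 bases on each side, occurred in another gene's promoter.

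**Figure D3:**
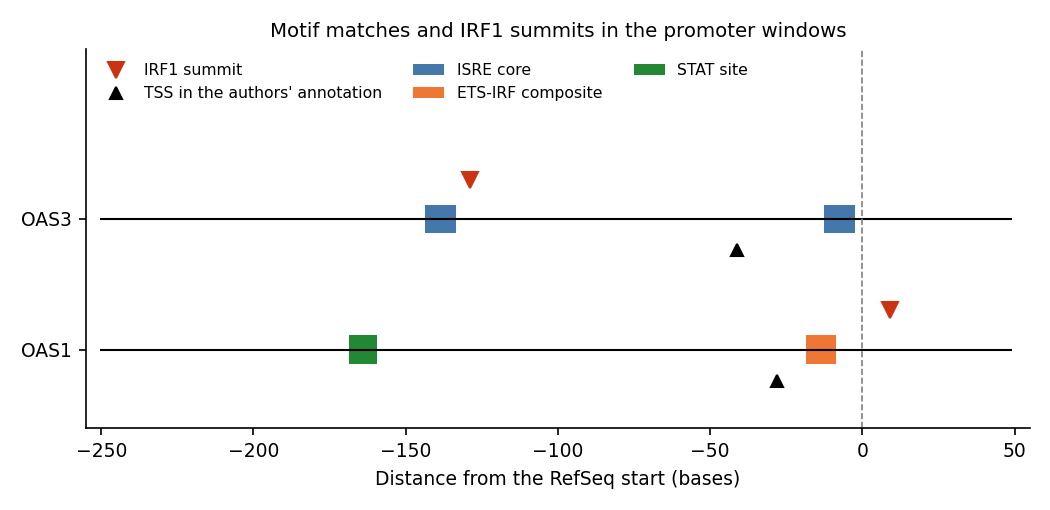
Positions of motif matches (boxes), IRF1 summits (red triangles) and the TSS of the authors' annotation (black triangles) in the promoter windows of OAS3 and OAS1, in bases from the RefSeq start (dashed line). The OAS3 summit lies beside the first of 2 ISRE cores, 129 bases before the start, and the OAS1 summit lies after the composite site, 9 bases past the start.

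The same search across all promoter windows gives the setting for the OAS genes. Summits fell in 302 windows, and 38.7% of these held the ISRE core, against 3.27% of the windows without a summit. For the composite the shares were 15.2% and 2.71%. Read the other way, 9.32% of windows with an ISRE core held a summit, as did 28.6% of the 91 windows with at least 2, against 0.86% of all windows. Windows of neighbouring genes can overlap and share a summit. In the 98 summits with an ISRE core in the same window, the median distance from the summit to the nearest match was 11 bp, with quartiles of 6 and 21.5 bp. The 5 bp of OAS3 was at or above 22.4% of these distances.

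A run of GAAA copies as dense as that of OAS3 was rare, and among the searched promoter windows only that of OAS3 held both the run and a summit. At least 4 copies within 20 bases were found in 36 windows (0.103%), of which 1 (2.78%), that of OAS3, held a summit. At least 3 copies were found in 651 windows (1.85%), of which 6.45% held a summit. At least 2 were common, in 8261 windows (23.5%), of which 2.14% held a summit. OAS1 had 2. This count was chosen after the OAS3 sequence had been seen.

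Other motifs were not shared by the 2 promoters. A STAT site of the form TTCNNNGAA, the type that STAT dimers bind, was found in OAS1 at -168 to -160 bases, 169 bp before the summit, and not in OAS3. It was in 7.66% of all windows, and in 7.62% of those with a summit. Retinoic acid response elements, searched as 2 copies of AGGTCA with 5 or 2 bases between them, were in neither OAS window. Such exact forms were present in 2 and 1 of all 35116 windows.

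Under the heading of 2-5A and the response to it, 5 genes were listed and described, and none had a summit. Of all protein-coding genes, only 3.36% had one within 10 kb of the TSS, so nothing particular to these 5 is read from this. They were ABCE1, which encodes an inhibitor of the nuclease that 2-5A activates, and PDE12, ENPP1 and AKAP7, whose products can degrade 2-5A. The last was CNP, which encodes a phosphodiesterase of cyclic nucleotides and is not stated here to act on 2-5A.

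Of 14 listed genes of nucleic acid sensing, 8 had a summit within 10 kb, 7 of them within 100 bp of the TSS, with a median best score of 114. The sensor gene RIGI had 173 and ADAR, which encodes an RNA-editing enzyme, had 159. DHX58, a regulator of RIG-I-like receptors, had 126, and DDX60, a helicase gene, had 125. EIF2AK2, which encodes the kinase PKR, another enzyme switched on by double-stranded RNA, had 104. IFIH1, the gene of the sensor MDA5, had 59.8, ZC3HAV1, an antiviral zinc finger gene, 52.5, and the endosomal receptor gene TLR3 14.4. Thus 5 of the 8 scored above OAS3 and 7 above OAS1. PRKRA, MAVS, DHX36, CGAS, STING1 and ILF2 had none. CGAS, whose product is a relative of the OAS enzymes in fold, was among these.

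Among 11 listed factors of interferon signalling, 4 had a summit within 10 kb. STAT2, a subunit of the complex that binds ISREs after type I interferon, had 74.8. IRF2, an antagonist of IRF1, had 62.3, IRF7 45.7 and the kinase gene TYK2 13.3. IRF3, IRF8, IRF9, JAK1, IFNAR1 and IFNAR2 had none, and the single summit assigned to IRF1 lay 24257 bp away from the start and scored 12.5. In all, 12 of the 30 listed genes had a summit within 10 kb, beside the 3.36% of all protein-coding genes given above.

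**Figure D4:**
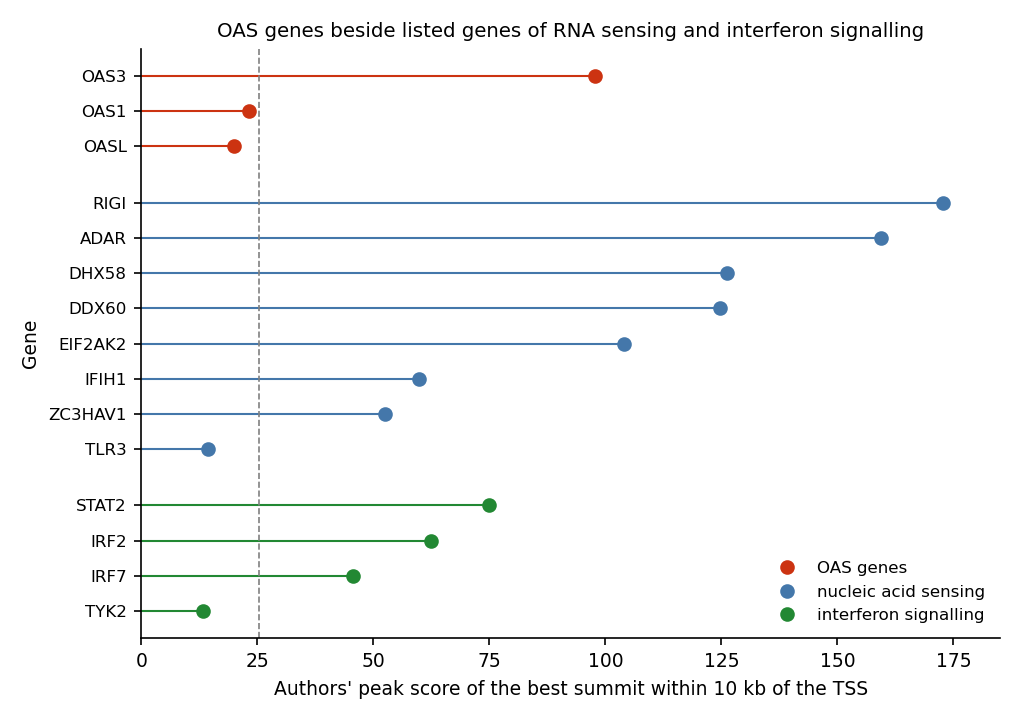
Authors' peak score of the best summit within 10 kb of the TSS for the 3 OAS genes and the 12 listed genes that had one, grouped by role, with the list's median score as a dashed line. OAS3 (97.8) lies between EIF2AK2 (104) and STAT2 (74.8), while OAS1, OASL, TLR3 and TYK2 lie under the median.

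Of the 23 listed genes in the promoter table, 9 had a summit within 10 kb, and 4 of these held an ISRE core: EIF2AK2, IFIH1, DDX60 and TLR3. None of the 14 without a summit within 10 kb did. Over all promoter windows these shares were 38.7% with a summit in the window and 3.27% without, as given above, and nothing particular to these genes is read from the counts. RIGI held the composite and no ISRE core in the searched form, as OAS1 did. The matches nearest to the summits of the 4 genes are set beside the one nearest to the OAS3 summit. All were taken by the same search, which leaves only 2 of the 10 letters in capitals free. Their likeness in capitals therefore follows from the search and is no result. Each runs 5′ to 3′ in the direction of its gene, with the match in capitals, which for TLR3 lies on the opposite strand and so reads as TTTC.
OAS3, chr12:112938324-112938347: aagaaacGAAACTGAAAgcaggga
EIF2AK2, chr2:37156970-37156993, - strand: ccaagggGAAAACGAAActgagaa
IFIH1, chr2:162318689-162318712, - strand: gagaatcGAAACAGAAAccaaagt
DDX60, chr4:168318789-168318812, - strand: gagaaagGAAACCGAAActcccgc
TLR3, chr4:186069145-186069168, + strand: gctttacTTTCACTTTCgagagtg

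The distance from summit to match was 5 bp in OAS3, 9 bp in EIF2AK2, 23 bp in IFIH1, 6 bp in DDX60 and 11 bp in TLR3. The 10 letters of the second OAS3 match and of the EIF2AK2 match were the same. Only the 2 bases between the GAAA copies could differ, and how many windows hold these letters is not given here. The OAS3 summit lay beside its first match and not this one. Close distances went with unlike scores: DDX60 (6 bp) had 125 and TLR3 (11 bp) had 14.4. No test was made over these 5 genes.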

How the data were processed

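IRF1 ChIP-seq of NB4 cells was deposited as 1 list of summits of the ATRA library, with a peak score per summit whose scale is not stated. Per the submitters' processing notes, the tools included Bowtie2 2.2.9 and MACS 1.4.2 and the build was hg38. The authors ran annotatePeaks.pl of HOMER on these summits, per the file headers. For the threshold and background of the calling, and for reads with several matches in the genome, the method is not given in the sources used here.

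Genes were matched by Entrez identifier to RefSeq GRCh38.p14, which held the nearest gene of 1977 of 1986 summits. Motifs were searched on both strands of 35116 RefSeq promoter windows, which cover 15813 of 19974 protein-coding genes. The search was tested on simulated data. With 1 library per group no test was run. The members, the pathway lists and the named genes (the members, all genes within 50 kb, the lists, score neighbours within 1 kb of a TSS and genes sharing a match) were chosen with earlier results of these data known. Some genes that these rules take are left out of the lists and are not reported here. Alternatives were other TSS distances and windows, a stricter score limit, merged summits, other reference sets and other motif forms. Python 3.11.15, pandas 2.3.3 and SciPy 1.17.1 were used.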

Additional observations from a re-analysis of the deposited data

How the results depend on the processing

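No paired analysis was possible because there was only 1 library in a group, and so no replicate could be left out. The count of OAS genes with a summit stayed at 3 with TSS distances of 100 bp, 1 kb or any distance and with gene spans extended by 10 kb. The count of summits at the OAS loci stayed at 3 with windows of 10 kb or 100 kb. Both stayed at 3 with summits under 200 bp apart merged. With scores at or above the list's median, both counts were 1, since OAS1 and OASL lie under it by their scores. OAS1 exceeded 46.1% of all summits, 42.5% of those within 1 kb of a TSS and 44.2% without the 135 summits on the short arm of chromosome 21. For OAS3 these were 91.5%, 86.5% and 91.1%, and for OASL 33.1%, 32.3% and 31.1%. Protein-coding genes with a summit numbered 672, 405 within 1 kb and 379 with scores at or above the median. The ISRE core was in 1 of 2 OAS promoter windows, also in the longer form and within 100 bases before the start, and in 2 with 1 mismatch. Only the second OAS3 match, 117 bp from the summit, met the longer form and the 100 bases. The match beside the OAS3 summit met neither. The 100 bp distance and the composite were chosen after seeing the data. Depth per summit is unknown.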
